A study of Rattus norvegicus with 24 samples.

Results

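The expression of 8 GABA receptor genes was followed across 4 structures that control blood pressure and water balance in the rat. They were Gabra2, Gabra3, Gabrb1, Gabrb2, Gabrg1 and Gabre, which encode subunits of the GABA-A receptor, and Gabbr1 and Gabbr2, which encode the subunits of the GABA-B receptor. A gene was counted through every probe set that the array annotation pairs with its symbol alone, whatever its intensity. This gave 15 of the 31042 probe sets tested and 8 of the 14217 genes with such a probe set. Messenger RNA had been measured on 24 Affymetrix arrays, each hybridised with RNA pooled from 5 male rats aged 10 to 13 weeks (10 to 12 weeks for NIL array 2). Spontaneously hypertensive rats (SHR), an inbred model of high blood pressure, gave 5 arrays from the PVN (paraventricular nucleus), 4 from the SON (supraoptic nucleus), 5 from the NIL (neurointermediate lobe) and 5 from the RVLM (rostral ventrolateral medulla). Wistar-Kyoto rats (WKY), the related strain with normal blood pressure, gave 5 RVLM arrays, so the strains could be compared in the RVLM alone. No rat was described as treated. Each n counts arrays, and the spread between arrays is that between pools, so the spread between single rats was not measured.

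GABA is the main inhibitory transmitter of the brain. GABA-A receptors are chloride channels built of 5 subunits, most of them from the alpha, beta and gamma classes, and the choice of subunit sets their drug sensitivity and kinetics. GABA-B receptors are G protein coupled pairs of the 2 Gabbr proteins: Gabbr1 binds GABA, and Gabbr2 couples to the G protein and brings the pair to the cell surface. In the PVN and RVLM, GABA restrains the neurons that drive sympathetic outflow. In the SON it inhibits the magnocellular neurons that release vasopressin and oxytocin, and in the NIL it acts on their nerve endings and on the melanotrophs of the intermediate lobe. The cell bodies of those neurons lie in the hypothalamus, not in the NIL.

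Several markers set the structures apart, though not every listed marker did. Pnmt, the enzyme that makes adrenaline, read 113 to 251 on SHR RVLM arrays, against 124 to 212 on WKY RVLM arrays and at most 16.5 elsewhere. The sum of the 3 listed adrenaline neuron markers, Th, Dbh and Pnmt, was 279 to 433 on SHR RVLM arrays but 442 to 555 on SON arrays. Of these 3, 1 was higher and 2 were lower in PVN than in RVLM. In SON, 1 was higher and 1 lower than in RVLM. Pomc, the melanotroph prohormone, had 611 to 1243 on NIL arrays and at most 16.2 elsewhere. The hormones Avp and Oxt summed to 7331 to 10518 on PVN arrays and 8776 to 10405 on SON arrays. Array medians lay between 35.9 and 46.5. PVN array 3 stood apart: its Spearman correlation with its own group was 0.912, against at least 0.938 for every other array. It had the lowest Crh of the PVN arrays (38.1) and the highest sum of 5 meningeal markers (7946, against a PVN median of 493). Results that include the PVN are therefore also given without it where that matters.

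The genes fall into clusters on the rat chromosomes. By RefSeq gene order (GRCr8), Gabra2 and Gabrg1 are neighbours on chromosome 14, and Gabrb1 lies in the same cluster next to Gabra4. Gabrb2 lies on chromosome 10 beside Gabra6, and Gabre and Gabra3 lie on the X chromosome with 1 protein-coding gene between them. Promoter windows, 250 bases before to 50 after the gene start, were found in RefSeq for 7 of the 8 genes. The windows of the 2 beta subunit genes are shown because Gabrb2 had the widest range among the structures of the 8 genes and Gabrb1 a narrower one. Both held the core of the motif of NRF-1, a transcription factor, searched on both strands as GCGCA, any base (N) and GCGC. The match is given in capitals. The Gabrb1 window is chr14:36902844-36903143 on the minus strand, and the Gabrb2 window is chr10:27439543-27439842 on the plus strand.
Gabrb1: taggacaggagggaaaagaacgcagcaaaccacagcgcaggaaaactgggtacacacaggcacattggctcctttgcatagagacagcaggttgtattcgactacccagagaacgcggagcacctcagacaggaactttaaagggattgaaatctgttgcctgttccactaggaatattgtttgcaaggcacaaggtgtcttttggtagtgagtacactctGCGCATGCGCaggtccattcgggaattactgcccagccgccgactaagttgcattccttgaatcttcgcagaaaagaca
Gabrb2: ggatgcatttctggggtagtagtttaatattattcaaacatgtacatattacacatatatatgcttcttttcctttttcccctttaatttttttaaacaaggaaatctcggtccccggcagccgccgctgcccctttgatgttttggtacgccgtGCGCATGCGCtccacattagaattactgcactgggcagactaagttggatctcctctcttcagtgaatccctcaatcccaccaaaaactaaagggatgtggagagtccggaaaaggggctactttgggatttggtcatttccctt
The match starts at base 222 of the Gabrb1 window, 29 bases before the gene start, and at base 156 of the Gabrb2 window, 95 bases before it. The longest run of letters that the 2 windows share is 11 bases long and covers the match. The same core was in 4.71% of 27457 rat promoter windows of this length, and in none of the other 5 members matched. The cAMP response element TGACGTCA was in none of the 7 windows and in 1.91% of all windows. These matches describe the letters only.

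**Figure D1:**
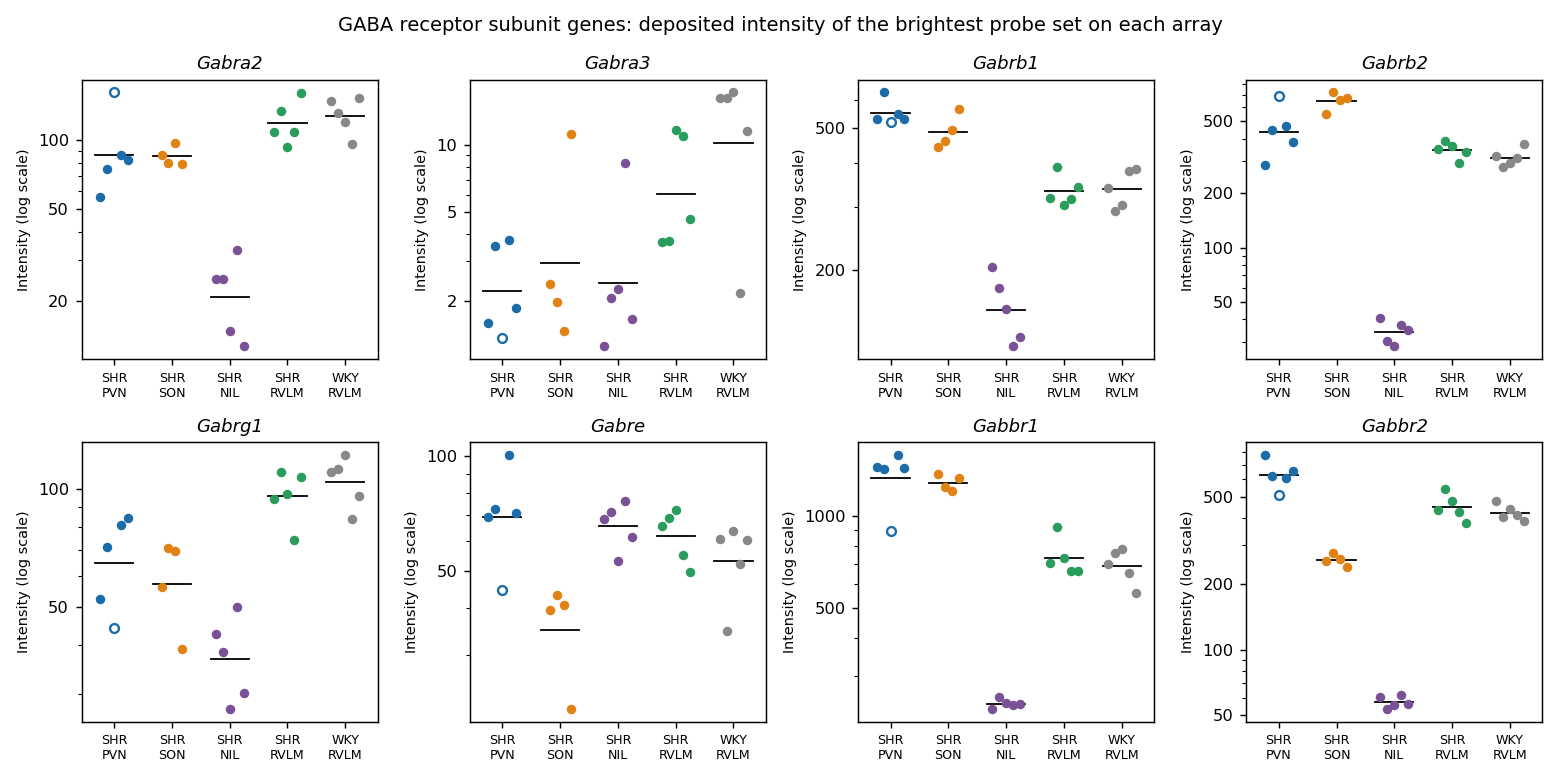
Deposited intensity (log scale) of the 8 genes, each by its brightest probe set, on every array of SHR PVN, SON, NIL and RVLM and of WKY RVLM. Points are arrays, the open circle is PVN array 3, and black lines are geometric means. NIL points lie below all others for Gabra2, Gabrb1, Gabrb2, Gabbr1 and Gabbr2, while SON points lie below NIL points for Gabre.

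All 8 genes differed among the 4 SHR structures by at least 1.01 on the log2 scale between the highest and the lowest mean, though not every such difference passed the test. The range was 4.26 for Gabrb2, 3.48 for Gabbr2, 2.61 for Gabra2, 2.48 for Gabbr1, 1.86 for Gabrb1, 1.51 for Gabra3, 1.47 for Gabrg1 and 1.01 for Gabre. The NIL had the lowest mean for 6 of the 8. Differences below are log2 differences of means from a limma fit, and a gene is called at an adjusted p under 0.05 over all 31042 probe sets. In these bulk samples, fewer cells that express a gene and less of its RNA per cell cannot be told apart.

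Gabra2 encodes an alpha subunit, found in many forebrain receptors and a target of benzodiazepines. Its intensities were 56.3, 74.9, 162, 85.9 and 82.1 in PVN arrays 1 to 5, and 86.4, 79.6, 97.0 and 78.8 in SON arrays 1 to 4. They were 24.9, 24.8, 14.8, 33.3 and 12.6 in NIL, and 109, 135, 93.5, 109 and 160.2 in SHR RVLM. All NIL arrays lay below all others and below their array medians, so the sizes of the differences from NIL are uncertain. PVN array 3 lay far above the other PVN arrays. Gabra2 was higher in PVN than in NIL by 2.10 (SE 0.25, adjusted p = 5.21e-07) and higher in SON than in NIL by 2.05 (SE 0.27, adjusted p = 2.19e-06). It was lower in NIL than in RVLM, at -2.61 (SE 0.25, adjusted p = 1.08e-08). The order of means ran RVLM, PVN, SON and NIL. PVN and SON differed by 0.05 (adjusted p = 0.949). PVN minus RVLM was -0.51 (adjusted p = 0.133) and became a call without PVN array 3, at -0.76 (adjusted p = 0.00972).

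Gabra3, an alpha subunit known from monoamine neurons and the reticular thalamus, was below its array's median on all 24 arrays. Its intensity spanned 1.35 to 3.73 on PVN arrays, 1.46 to 11.2 on SON arrays, 1.25 to 8.30 on NIL arrays and 3.67 to 11.8 on SHR RVLM arrays. These groups overlapped, and no difference was called. The largest, PVN minus RVLM, was -1.51 with a 95% confidence interval of -2.77 to -0.25 (adjusted p = 0.0639), and NIL minus RVLM was -1.43 (adjusted p = 0.0557). PVN minus RVLM was called when NIL array 4, SON array 4 or RVLM array 2 was left out, with a lowest adjusted p of 0.0395. NIL minus RVLM was called when NIL array 4, SON array 4, RVLM array 1 or RVLM array 2 was left out, with a lowest adjusted p of 0.0132. It was also called with a pseudocount of 16 (-0.33, adjusted p = 0.0453) and without an intensity trend in the fit (adjusted p = 0.0476). SON minus RVLM was -1.11 (adjusted p = 0.208), and -1.74 (adjusted p = 0.0435) without SON array 4. At such low intensity the array gives little precision for this gene.

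Beta subunits are needed for a GABA-A receptor to assemble and reach the membrane, and Gabrb2 belongs to the most common receptor of the brain. Gabrb2 had 287, 446, 694, 470.1 and 384 in PVN arrays 1 to 5, and 546, 723, 659 and 673 in SON arrays 1 to 4. It had 40.6, 30.3, 28.4, 37.5 and 34.7 in NIL arrays, and 350.4, 389.8, 364, 294 and 339 in SHR RVLM arrays. The NIL arrays lay about an order of magnitude below the rest and below the NIL array medians of 41.0 to 45.1, and the PVN arrays spread across both SON and RVLM values. Its difference was 3.73 for PVN minus NIL (SE 0.16, adjusted p = 1.57e-14), a 13.2-fold higher mean, and 4.26 for SON minus NIL (SE 0.17, adjusted p = 5.60e-15), a 19.2-fold higher mean. NIL minus RVLM was -3.44 (SE 0.16, adjusted p = 3.28e-14). SON exceeded RVLM by 0.82 (SE 0.17, adjusted p = 5.44e-04), but with the mean of its 2 probe sets in place of the brightest the sign turned (-0.52, adjusted p = 0.342).

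Gabrb2 was lower in PVN than in SON by 0.54, and this call was weak: PVN minus SON was -0.54 (SE 0.17, adjusted p = 0.0477). The call was lost in 17 of 19 fits that left out 1 array, with adjusted p values up to 0.131. It was lost with the replicate number as a block (adjusted p = 0.0839), and the sign turned with the mean of its probe sets (0.16, adjusted p = 0.867). Without PVN array 3, which had the highest Gabrb2 of the PVN arrays, the difference was -0.72 (adjusted p = 2.62e-04). The order of means was SON, PVN, RVLM and NIL, and PVN and RVLM were not told apart (0.29, adjusted p = 0.176).

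Gabrb1 had 532, 629, 522, 547 and 530.0 in PVN, and 443, 461, 493 and 565 in SON. It had 204, 178, 156, 123 and 131 in NIL, and 319.5, 389, 304, 318 and 343 in SHR RVLM. The NIL arrays lay lowest, the RVLM arrays next, and the PVN and SON arrays overlapped above both. Gabrb1 was higher in PVN than in NIL by 1.86 (SE 0.13, adjusted p = 1.09e-10), higher in SON than in NIL by 1.66 (SE 0.14, adjusted p = 2.54e-09) and higher in PVN than in RVLM by 0.67 (SE 0.13, adjusted p = 4.18e-04). It was lower in NIL than in RVLM, at -1.19 (SE 0.13, adjusted p = 9.10e-08). SON exceeded RVLM by 0.47 (SE 0.14, adjusted p = 0.0127), a call lost without SON array 4 (0.41, adjusted p = 0.0517). PVN minus SON was 0.20 with a 95% confidence interval of -0.09 to 0.49.

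On their brightest probe sets, the 2 beta subunits changed unequally. The log2 ratio of Gabrb1 over Gabrb2 was lower on all 5 PVN arrays than on any of the 5 NIL arrays. The difference of the group means was -1.86 (exact permutation test, two-sided, adjusted p = 0.0278). It was lower in SON than in NIL, at -2.60 (exact permutation test, adjusted p = 0.0370), and higher in NIL than in RVLM, at 2.25 (exact permutation test, adjusted p = 0.0278). The SON minus NIL difference stayed between -2.72 and -2.51 with 1 array left out. It passed in the 15 of 24 such tests whose missing array was of neither group. Its adjusted p reached 0.0833 when a SON or NIL array was missing, where fewer splits raise the smallest p possible. This count of passes follows from the design and does not measure how firm the difference is. With the mean of each gene's probe sets the difference was -0.20 in PVN minus NIL and -0.25 in SON minus NIL (exact permutation test, adjusted p = 0.870 for both), and 1.24 in NIL minus RVLM (exact permutation test, adjusted p = 0.0556). The PVN minus NIL and SON minus NIL calls therefore rest on the choice of the brightest probe set. PVN minus SON was 0.74 and did not pass after adjustment over the 28 ratio tests (exact permutation test, adjusted p = 0.0952). SON minus RVLM was -0.35 (exact permutation test, adjusted p = 0.0684), and -0.34 (adjusted p = 0.0278) with a pseudocount of 16. PVN minus RVLM was 0.38 (exact permutation test, adjusted p = 0.199), and 0.57 (adjusted p = 0.0370) without PVN array 3. The smallest p an exact test can give is 0.00794 for 5 against 5 arrays and 0.0159 for 5 against 4.

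Gabrg1 encodes a gamma subunit that makes receptors less sensitive to benzodiazepines. It had 52.5, 71.4, 44.2, 81.1 and 84.4 in PVN, and 56.4, 70.7, 69.6 and 39.1 in SON. It had 42.8, 38.5, 27.5, 50.2 and 30.3 in NIL, and 94.4, 111, 97.5, 74.3 and 107 in SHR RVLM. RVLM arrays were highest on average and overlapped the top of PVN, and NIL arrays were lowest with some overlap with PVN and SON. Gabrg1 was lower than in RVLM in each other structure: NIL minus RVLM was -1.47 (SE 0.19, adjusted p = 1.30e-06), SON minus RVLM was -0.82 (SE 0.21, adjusted p = 0.00397) and PVN minus RVLM was -0.62 (SE 0.19, adjusted p = 0.0183). The last call was lost without RVLM array 5 (-0.56, adjusted p = 0.0519). PVN exceeded NIL by 0.85 (SE 0.19, adjusted p = 0.00124), and SON exceeded NIL by 0.65 (SE 0.21, adjusted p = 0.0178). This second call was lost without NIL array 3, SON array 2 or SON array 3, with adjusted p values of 0.0531 to 0.0707. PVN and SON were not told apart (0.20, adjusted p = 0.653).

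Gabrg1 and Gabra2, neighbours on chromosome 14, had the same order of RVLM highest and NIL lowest, but did not change by equal amounts. The log2 ratio of Gabrg1 over Gabra2 was lower in PVN than in NIL, at -1.25 (exact permutation test, adjusted p = 0.0278). Minus its mean over the 24 arrays, it was -1.74 on PVN array 3 and 0.03 to 0.18 on the other PVN arrays. Without PVN array 3 the PVN minus NIL difference was -0.89 and still passed. The ratio was lower in SON than in NIL, at -1.40 (exact permutation test, adjusted p = 0.0370). It was higher in NIL than in RVLM, at 1.14 (exact permutation test, adjusted p = 0.0278). On NIL arrays, Gabra2 exceeded the array median on 0 of 5 and Gabrg1 on 2 of 5, so the sizes of these differences are uncertain. Over the alternatives they shrank to as little as -0.86 for PVN minus NIL, -0.97 for SON minus NIL and 0.78 for NIL minus RVLM. With 1 array left out, the SON minus NIL difference stayed at -1.53 to -1.25. It passed in the 15 of 24 tests whose missing array was of neither group. Its adjusted p reached 0.0833 when a SON or NIL array was missing, where again fewer splits raise the smallest p possible. The ratio of Gabra2 over Gabra3 has little precision, since Gabra3 was below the array median throughout. Its PVN minus NIL difference was 2.18 (exact permutation test, adjusted p = 0.0278), and 1.78 without PVN array 3. With a pseudocount of 16, SON minus NIL (1.37, exact permutation test, adjusted p = 0.0278) and NIL minus RVLM (-1.60, exact permutation test, adjusted p = 0.0247) passed too.

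Gabre encodes the epsilon subunit, which makes receptors insensitive to benzodiazepines and is known from the hypothalamus and locus coeruleus. It had 69.1, 72.9, 44.5, 101 and 70.8 in PVN, and 39.5, 43.3, 40.8 and 21.7 in SON. It had 68.6, 71.5, 52.9, 76.2 and 61.5 in NIL, and 65.7, 68.6, 72.1, 55.2 and 49.6 in SHR RVLM. Every SON array lay below every other SHR array, which no other member showed. Gabre was higher in PVN than in SON by 1.01 (SE 0.21, adjusted p = 0.00398), a 2.02-fold higher mean. It was lower in SON than in NIL, at -0.89 (SE 0.21, adjusted p = 0.00172), and lower in SON than in RVLM, at -0.89 (SE 0.21, adjusted p = 0.00209). PVN, NIL and RVLM were not told apart, with NIL minus RVLM at -0.00 and a 95% confidence interval of -0.41 to 0.41. The PVN minus SON difference was 1.16 (adjusted p = 2.31e-04) without PVN array 3, and its call was lost when the 2 groups were fitted alone (adjusted p = 0.0541). With the mean of its 2 probe sets, PVN minus SON was 1.03 (adjusted p = 0.0933) and SON minus RVLM was -0.91 (adjusted p = 0.0696).

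Gabbr2 had 774, 619, 507, 607 and 655 in PVN, and 253, 278, 258 and 238 in SON. It had 60.8, 53.5, 56.0, 62.0 and 56.6 in NIL, and 434, 541, 479, 427 and 381 in SHR RVLM. PVN and RVLM arrays overlapped, SON arrays lay clear below both, and NIL arrays lay clear below SON. All 6 pairs of structures differed for Gabbr2, which held for no other member. PVN exceeded NIL by 3.48 (SE 0.12, adjusted p = 3.36e-16), an 11.2-fold higher mean, and exceeded SON by 1.32 (SE 0.12, adjusted p = 3.53e-06), a 2.49-fold higher mean. PVN minus RVLM was 0.43 (SE 0.12, adjusted p = 0.00649). SON minus NIL was 2.16 (SE 0.12, adjusted p = 3.69e-12), SON minus RVLM was -0.89 (SE 0.12, adjusted p = 7.72e-06) and NIL minus RVLM was -3.05 (SE 0.12, adjusted p = 1.69e-15). Without PVN array 3, PVN exceeded SON by 1.38 and RVLM by 0.49, and both were still called. With the mean of its 2 probe sets, SON minus NIL was 0.61 (adjusted p = 0.187) and PVN minus RVLM was 0.18 (adjusted p = 0.733).

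Gabbr1 had 1446, 1422, 893, 1582 and 1434 in PVN, and 1377, 1247, 1204 and 1330.4 in SON. It had 235, 258, 246, 242 and 243 in NIL, and 702, 921, 733, 660.4 and 663 in SHR RVLM. PVN and SON arrays overlapped and lay above RVLM, except that PVN array 3 read below RVLM array 2, and NIL arrays lay within a narrow band below. Gabbr1 was higher in PVN than in NIL by 2.48 (SE 0.12, adjusted p = 1.36e-13) and than in RVLM by 0.81 (SE 0.12, adjusted p = 1.30e-05). It was higher in SON than in NIL by 2.41 (SE 0.12, adjusted p = 8.35e-13) and than in RVLM by 0.74 (SE 0.12, adjusted p = 9.10e-05), and NIL minus RVLM was -1.67 (SE 0.12, adjusted p = 6.21e-11). PVN minus SON was 0.08 with a 95% confidence interval of -0.18 to 0.33 (adjusted p = 0.804).

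Gabbr1 has 5 probe sets, and they did not all give the same answer. On probe set 1375720_at the PVN arrays had 994, 836, 901, 772 and 773, and the SON arrays had 655, 701, 600.0 and 577. Here no PVN array overlapped SON, and PVN exceeded SON by 0.46 (SE 0.13, adjusted p = 0.0289), or by 0.42 (adjusted p = 0.0374) without PVN array 3. On the same probe set SON minus RVLM was 0.20 (adjusted p = 0.254), against 0.74 on the brightest. Probe set 1369371_a_at had 211, 265, 7.02, 278 and 246 on PVN arrays, so array 3 read far below the rest on this probe set and below them on the brightest (893), but within their range on 1375720_at (901). With the mean of the 5 probe sets, Gabbr1 was not called in PVN minus RVLM (0.48, adjusted p = 0.159) or SON minus RVLM (0.22, adjusted p = 0.577). Which transcripts of the gene each probe set reads is not given in the sources used here.

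**Figure D2:**
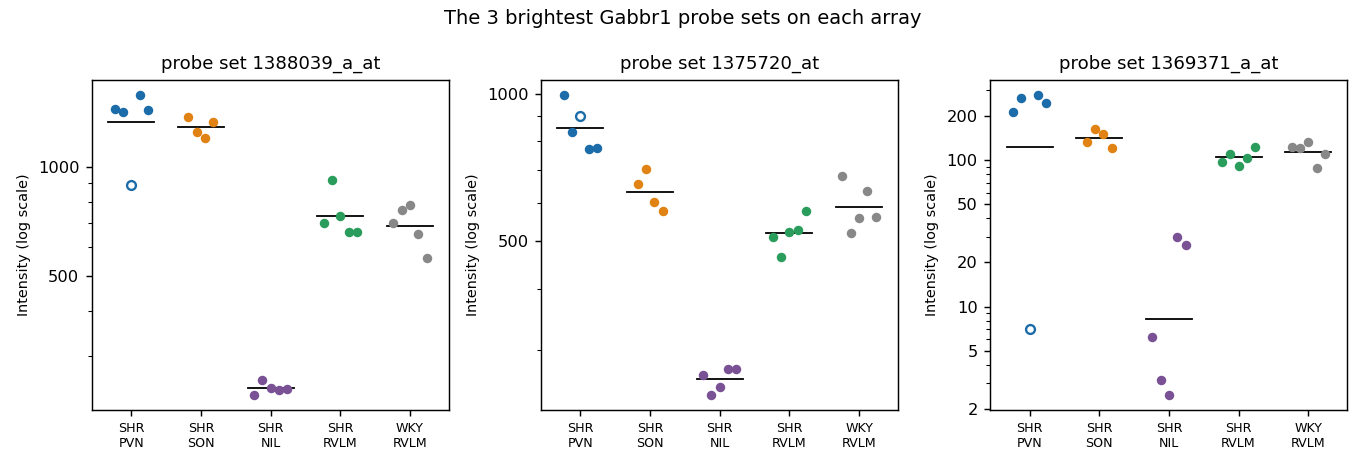
Intensity (log scale) of the 3 brightest Gabbr1 probe sets on each array of SHR PVN, SON, NIL and RVLM and of WKY RVLM. Points are arrays, lines are geometric means, and the open circle is PVN array 3, which reads 893, 901 and 7.02 on the 3 probe sets.

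The 2 GABA-B subunits, whose products work as a pair, did not change in step. The log2 ratio of Gabbr2 over Gabbr1 was higher in PVN than in SON by 1.24 (exact permutation test, two-sided, adjusted p = 0.0370), and higher in PVN than in NIL by 1.00 (exact permutation test, adjusted p = 0.0278). It was lower in PVN than in RVLM, at -0.38 (exact permutation test, adjusted p = 0.0278). It was lower in SON than in RVLM, at -1.63 (exact permutation test, adjusted p = 0.0370), and lower in NIL than in RVLM, at -1.38 (exact permutation test, adjusted p = 0.0278). SON and NIL, far apart in the level of Gabbr1, were not told apart by the ratio (-0.25, exact permutation test, adjusted p = 0.111), but passed with a pseudocount of 16 (-0.44, adjusted p = 0.0278). With 1 array left out the PVN minus SON difference stayed between 1.18 and 1.32, and SON minus RVLM between -1.68 and -1.58. Each passed in the 15 of 24 such tests whose missing array was of neither group. With an array of the 2 groups missing, the adjusted p of each reached 0.0833, as fewer splits raise the smallest p possible. Of the 28 ratio tests, 12 passed, and none of them in the strain comparison. With the mean of each gene's probe sets 0 of 28 passed. Gabbr2 over Gabbr1 was then -0.090 in PVN minus NIL, -0.21 in NIL minus RVLM (exact permutation test, adjusted p = 0.870) and -1.36 in SON minus RVLM (exact permutation test, adjusted p = 0.0741). The ratios of Gabrg1 over Gabra2 and of Gabra2 over Gabra3 kept their values, since these genes have 1 probe set each, and missed the threshold only through the adjustment over all 28 tests (adjusted p = 0.0556 to 0.0741).

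**Figure D3:**
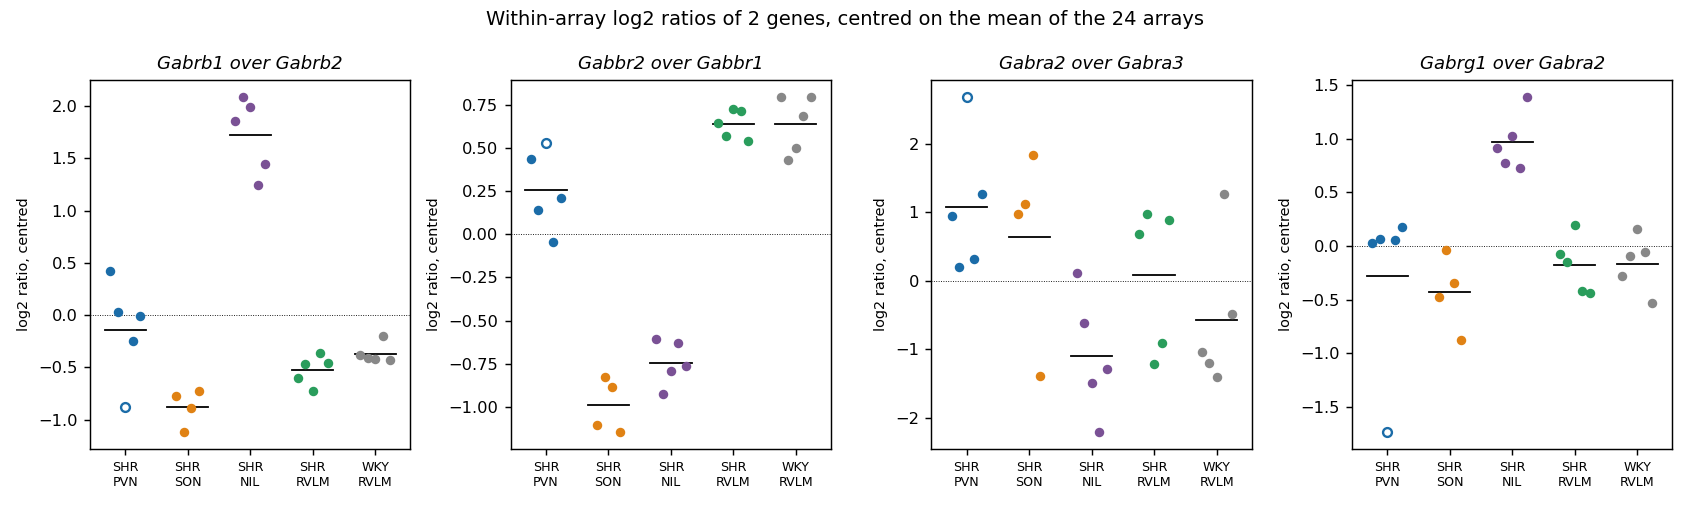
Within-array log2 ratios of 4 gene pairs, each minus its mean over the 24 arrays, by structure and strain. Points are arrays, lines are group means, and the open circle is PVN array 3. Gabrb1 over Gabrb2 is highest in NIL, and Gabbr2 over Gabbr1 is lowest in SON and highest in both RVLM groups.

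By comparison, the members were called as follows. In PVN minus SON, 2 of 8 were higher (Gabbr2 and Gabre) and 1 was lower (Gabrb2), against 4.66% and 3.44% of all probe sets. In PVN minus NIL, 6 were higher and 0 lower, against 18.3% and 20.0% of all probe sets. In SON minus NIL, 6 were higher and 1 (Gabre) was lower, against 16.4% and 17.3%. In PVN minus RVLM, 3 were higher and 1 (Gabrg1) was lower, against 15.4% and 15.0%, and Gabra2 was also lower without PVN array 3. In SON minus RVLM, 3 were higher (Gabrb2, Gabbr1 and Gabrb1) and 3 lower (Gabrg1, Gabbr2 and Gabre), against 15.3% and 15.6%. In NIL minus RVLM, 0 were higher and 6 lower, against 25.5% and 23.6%. The median log2 difference of the 8 was 1.98 for PVN minus NIL and -1.57 for NIL minus RVLM, against -0.02 and 0.04 over all probe sets. These comparisons share arrays, so their counts are not independent of each other.

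**Figure D4:**
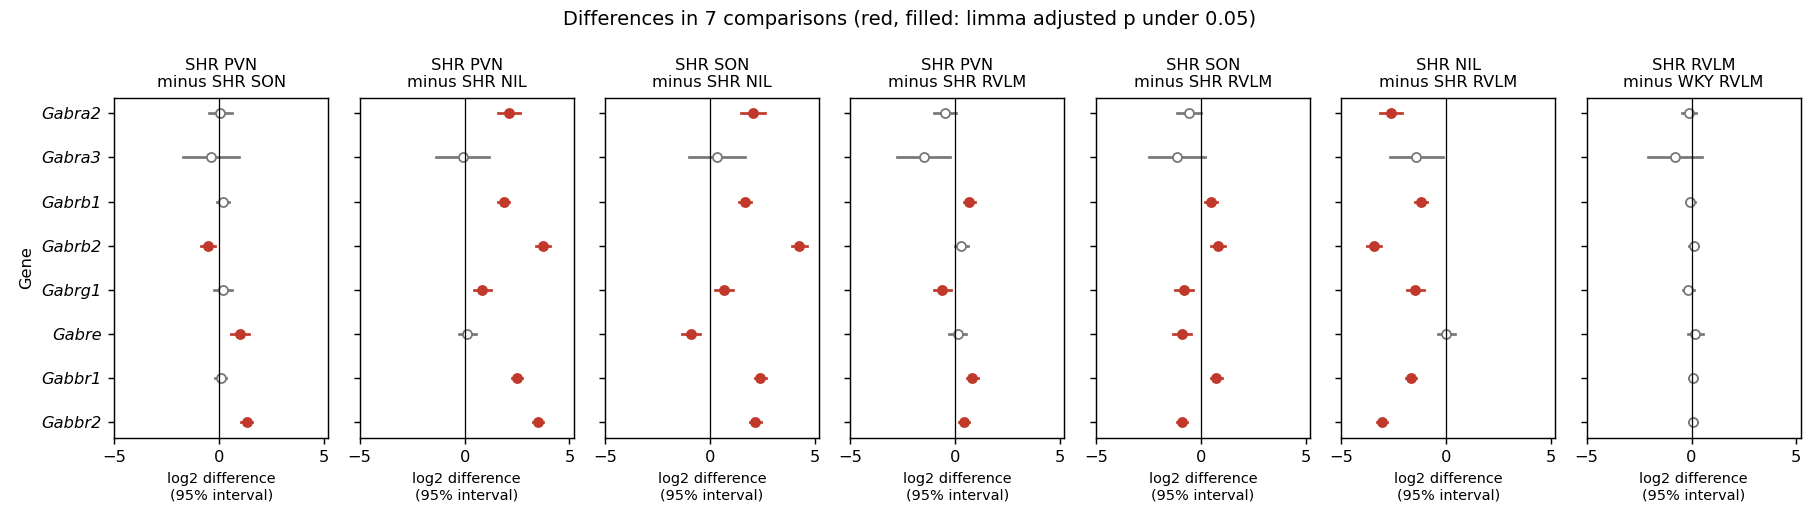
Log2 differences of the 8 genes in the 6 comparisons of SHR structures and in SHR minus WKY RVLM, with 95% confidence intervals from the limma fits. Filled red points have an adjusted p under 0.05. The intervals of all 8 genes cross 0 in the strain comparison, whereas 6 of 8 genes lie below 0 as calls in NIL minus RVLM.

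Between the strains, none of the 8 genes was called in the RVLM. Gabra2 had 109, 135, 93.5, 109 and 160.2 in SHR RVLM and 148, 132, 121, 96.4 and 153 in WKY RVLM. Gabbr1 had 702, 921, 733, 660.4 and 663 in SHR RVLM and 698, 759, 784, 651 and 562 in WKY RVLM. Gabbr2 had 434, 541, 479, 427 and 381 in SHR RVLM and 478, 404, 438, 413 and 386 in WKY RVLM. The SHR and WKY arrays overlapped for all 8 genes. Without a strain difference, 5 arrays separate fully from 5 with a probability of only 0.00794, so overlap is the usual outcome. The share of all probe sets that overlapped was not counted. The limma fit called 0 of 8 at an adjusted p under 0.05, and 0 at an unadjusted p under 0.05, while 0.863% of all probe sets were called and 2607 had an unadjusted p under 0.05. The lowest unadjusted p was 0.203, for Gabra3, and adjusted p values ran from 0.789 to 0.937.

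The intervals show how large a strain difference these arrays still allow. SHR minus WKY was -0.14 for Gabra2 (95% confidence interval -0.47 to 0.20), -0.05 for Gabrb1 (-0.28 to 0.18) and 0.11 for Gabrb2 (-0.12 to 0.33). It was -0.15 for Gabrg1 (-0.40 to 0.10), 0.19 for Gabre (-0.18 to 0.56), 0.06 for Gabbr1 (-0.14 to 0.26) and 0.06 for Gabbr2 (-0.12 to 0.24). For Gabra3, dim in both strains, it was -0.79 with a wide interval of -2.07 to 0.48. Probe set 1375720_at of Gabbr1 gave -0.21 (unadjusted p = 0.0698). The ratio of Gabbr2 over Gabbr1 differed by -0.00 between the strains (exact permutation test, adjusted p = 0.976). Gabrb1 over Gabrb2 differed by -0.15 (exact permutation test, adjusted p = 0.144), and by -0.20 (adjusted p = 0.0370) when SHR RVLM array 4 was left out.

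Other genes of GABA signalling were counted from lists. Of 10 other GABA-A subunit genes measured, Gabra5, an alpha subunit of extrasynaptic receptors, was also lowest in NIL: it averaged 165 ± 27.3 in PVN (SD, n = 5), 112 ± 15.9 in SON (n = 4), 14.2 ± 4.37 in NIL (n = 5) and 146 ± 6.48 in SHR RVLM (n = 5). It was called higher in PVN than in SON (0.59, adjusted p = 0.0358) and than in NIL (3.61, adjusted p = 4.41e-14), and higher in SON than in NIL (3.03, adjusted p = 3.20e-12). It was the only gene of that list called in these 3 comparisons, and no gene of it was called in PVN minus RVLM. In SON minus RVLM, Gabrr1 was higher (1.14) and Gabrp (-1.84) and Gabra5 (-0.48) were lower. In NIL minus RVLM, Gabrq was higher (0.73) and Gabra5 lower (-3.50).

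The genes that make, pack and clear GABA differed in the same comparisons. Of 7 measured, 3 were higher and 1 lower in PVN than in SON: Gad1, which makes GABA, was higher by 1.04 (adjusted p = 0.0154), Slc32a1, which loads it into vesicles, was higher by 1.21 (adjusted p = 0.0175), and the transporter Slc6a13 was lower, at -4.00 (adjusted p = 0.00256). In each of the comparisons of NIL with PVN, SON and RVLM, 6 of the 7 were lower in NIL. The exception was Slc6a13 against PVN and RVLM, and Slc6a11 against SON. Without PVN array 3, 6 of the 7 were called lower in NIL than in PVN and 1 was called higher. Gad1 averaged 6.57 ± 2.56 in NIL against 795 ± 65.7 in SHR RVLM (SD, n = 5 each), with a log2 difference of -7.10, and Slc32a1 (-5.81) and Gad2 (-3.84) were also lower there. All 3 read at most 13.1 in NIL, below the array medians, and no detection calls were used here, so the exact size of these differences is uncertain. None of the 7 was called in PVN minus RVLM, and 1 was lower there without PVN array 3. In SON minus RVLM, 1 was higher (Slc6a13, 3.62) and 3 were lower, Gad2 (-1.80) and Slc32a1 (-1.46) among them. Gad2 read below the array medians in SON (1.65 to 24.5) and SHR RVLM (15.4 to 35.9), as did Slc6a13 in SHR RVLM (9.78 to 20.1). Slc6a13 also spanned 1.89 to 129 on PVN arrays, so the sizes of these differences are uncertain too. Between the strains 1 of 7 was called, Abat, which breaks GABA down, at -0.39 (adjusted p = 0.0374).

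Among 12 scaffold and auxiliary genes, none was called in PVN minus SON, and 3 were higher and 3 lower in PVN minus NIL, among them Shisa7 (1.40), Kctd16 (-1.20) and Gabarapl1 (0.86). In SON minus NIL 3 were higher and 1 lower, in PVN minus RVLM and in SON minus RVLM 3 were higher and 2 lower, and in NIL minus RVLM 5 were higher and 3 lower. Plcl1, which binds GABA-A beta subunits, was lower than in RVLM in PVN (-1.59), SON (-1.34) and NIL (-2.19). Between the strains, Gabarapl1, of the GABARAP family that takes part in receptor trafficking and autophagy, was higher in SHR RVLM by 0.54 (adjusted p = 0.0142).

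Glycine receptors, the other chloride channels of inhibitory synapses, differed mostly in NIL. Of 4 measured, Glra2 (-6.00), Glrb (-4.31) and Glra1 (-1.71) were lower in NIL than in RVLM, and 1 was higher. Glra2 read 1.63 to 3.01 in NIL, far below the array medians, so the size of its difference is uncertain too. Glra2 was higher in PVN than in SON by 0.85 (adjusted p = 0.0131), and 2 of the 4 in PVN and 3 in SON were higher than in NIL. In PVN minus RVLM, Glra3 was higher (1.34) and Glrb lower (-1.36), and in SON minus RVLM Glrb was lower (-1.87). None was called between the strains.

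Of 7 chloride transporter genes measured, which include the cotransporters that set the chloride gradient, Slc12a5 exports chloride from neurons. It was higher in PVN than in SON by 0.56 (adjusted p = 0.00486) and than in NIL by 2.15, and lower in NIL than in RVLM (-2.43) and in SON than in RVLM (-0.84). Slc12a2, which imports chloride, was lower in PVN (-1.79) and in SON (-1.77) than in RVLM. In the list 1 was higher and 1 lower in PVN minus SON, 1 and 3 in PVN minus NIL, 2 and 4 in SON minus NIL, 1 and 3 in PVN minus RVLM, 2 and 4 in SON minus RVLM, 2 and 4 in NIL minus RVLM, and none between the strains. Leaving out PVN array 3 changed 1 of the PVN minus SON counts of these 5 lists: 2 chloride transporter genes were then lower.

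Markers of cell types moved with the same comparisons. The sum of 7 neuronal markers was 7064 to 8026 on PVN arrays, 7210 to 8098 on SON arrays and 3088 to 3434 on NIL arrays. It was 14124 to 16751 on SHR RVLM arrays, against 12981 to 16114 on WKY RVLM arrays. Of these markers 6 were lower in NIL than in RVLM, and 6 were lower in PVN and in SON than in RVLM. Gabbr1 and Gabrb1 went the other way and were higher in PVN and in SON than in RVLM. The sum of Gad1, Gad2 and Slc32a1 was 1157 to 2187 on PVN arrays, 565 to 1125 on SON arrays, 9.30 to 23.1 on NIL arrays and 1068 to 1261 on SHR RVLM arrays, against 951 to 1279 on WKY RVLM arrays. Astrocyte markers summed to 7448 to 11758 on PVN arrays, 11256 to 12674 on SON arrays, 2381 to 2907 on NIL arrays and 10149 to 12004 on SHR RVLM arrays, and all 5 were lower in NIL than in each other structure. Anterior pituitary markers summed to 1158 to 12794 in NIL. The 4 oligodendrocyte markers measured summed to 95.7 to 124 in NIL, 2355 to 6469 in PVN and 3560 to 3878 in SON, against 9723 to 12385 in SHR RVLM. All 4 were lower in PVN (median -2.36) and in SON (median -2.47) than in RVLM. Of the 5 astrocyte markers, 1 was higher and 4 were lower in PVN than in RVLM, and 2 were higher and 1 was lower in SON than in RVLM. Of the 5 meningeal markers, which summed to 2430 to 3858 on SHR RVLM arrays, 1 was lower in PVN (5 without PVN array 3) and 4 were higher in SON than in RVLM.

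In PVN minus SON, where Gabbr2 and Gabre were higher and Gabrb2 lower, all 5 meningeal markers and 3 of 5 astrocyte markers were lower in PVN, 1 of 7 neuronal and 2 of 3 GABA neuron markers were higher, and no oligodendrocyte marker was called. Without PVN array 3 these counts were the same. Meningeal markers summed to 382 to 7946 in PVN and 6335 to 9390 in SON, and the PVN value of 7946 was that of array 3. In deposited intensity, this array was at an extreme of the PVN arrays for all 8 genes: it was highest for Gabrb2 (694) and Gabra2 (162), and lowest for Gabre (44.5), Gabbr1 (893), Gabbr2 (507), Gabrg1 (44.2), Gabrb1 (522) and Gabra3 (1.35). By percentile among the probe sets of the same array, it was not lowest for Gabrb1 (94.96, against 94.82 on array 1). The same held for Gabra3 (4.175, against 4.04 on array 5). The part of cell composition in these differences was not tested. Between the strains, no marker of neurons, GABA neurons, astrocytes, oligodendrocytes or meninges was called.

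For each member, the genes with the most similar profile over the 19 SHR arrays were found among 10589 genes, as the smallest root mean square distance after each gene was centred on its own mean. Gabbr1 was nearest to Pkia (0.211 on the log2 scale) and Nrsn1 (0.217), and Gabbr2 to Camta1 (0.233) and Ralyl (0.257). Gabrb1 was nearest to Slc1a4 (0.179) and Slc1a3 (0.184), an astrocyte glutamate transporter, and Gabrb2 to Kcnip4 (0.310), a potassium channel partner, and LOC102553820 (0.369). Gabra2 was nearest to Rell2 (0.320) and Robo2 (0.355), Gabrg1 to Wwp1 (0.248) and Rnf128 (0.289), and Gabre to Pou2f2 (0.265) and Relt (0.278). Gabra3 had no near neighbour, with Rab30 (0.762) and Gpr137b (0.786) as the closest. Members themselves were left out of the search.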

How the data were processed

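The files hold 1 table of 31099 probe sets on 24 Affymetrix rat arrays. Per array, the authors deposited a linear intensity for each probe set. The submitters' processing notes name GCOS 1.2. Each array's 2% trimmed mean was 99.6 to 99.8, as scaling by a single factor gives. Neither the background method nor any detection call is given in the sources used here. All value columns were mapped to samples by their names, and groups follow strain and structure in the labels. Pools were treated as independent, although the same rats may have given several structures.

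No pseudocount was added before the log2 step, and all arrays were then shifted to the same median. The 57 control probe sets were left out, which left 31042 with no intensity filter. Of these, 20826 carried 1 gene symbol in the array annotation, 436 several and 9780 none. Differences were tested with lmFit and eBayes (trend) of limma 3.58.1 in R 4.3.3, over the 19 SHR arrays for structures and the 10 RVLM arrays for strains, with Benjamini-Hochberg adjustment over 31042. A gene is its brightest probe set, the others serving as a check. Gene means and SDs are of the deposited intensity. Ratios of 2 members were compared by two-sided exact permutation tests (28 tests, Benjamini-Hochberg adjusted) in Python 3.11.15 with numpy 2.4.6. Promoter windows come from RefSeq (GRCr8). Both kinds of test were also run on simulated data, the limma fit for the strain comparison alone.

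The named genes are all 8 members, at most 3 called genes per list and comparison by size of difference, and the 2 nearest genes of each member whose structures differed by at least 1. The members, lists and ratio pairs were chosen with earlier results of these data known, so they give no independent support to patterns already seen. As alternatives, the arrays were left unshifted or quantile normalized, a pseudocount of 16, a filter at the 40th percentile, no trend or a replicate block was used, each array was left out, probe sets of a gene were averaged, and the fit held the 2 groups alone or all 24 arrays. WKY tissue other than RVLM was not analysed here.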

Additional observations from a re-analysis of the deposited data

Results flagged for a closer look

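A single array stood apart from the rest of its group in 11 of 75 sets of 4 or 5 arrays, by Dixon's test at the 95% level, and in 6 of 40 sets for the brightest probe sets. For normally distributed values, chance alone sets about 1 in 20 groups apart. The test used deposited intensities, not their logs, and the sets share arrays, so 11 of 75 cannot be read as an excess. Of the brightest, PVN array 3 had 161.7 for Gabra2, against 56.3 to 85.9 on the other PVN arrays, and 893 for Gabbr1, against 1422 to 1582. PVN array 2 had 629.3 for Gabrb1, against 522 to 547 on the others. Gabra3 was 11.2 on SON array 4 (others 1.46 to 2.38) and 8.30 on NIL array 4 (others 1.25 to 2.26). SHR RVLM array 2 had 921.5 for Gabbr1, against 660.4 to 733.

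The rest were dimmer probe sets. For Gabbr1, 1369371_a_at read 7.02 on PVN array 3 (others 211 to 278), and 1369372_at read 25.5 on PVN array 4 (others 2.89 to 8.98) and 7.14 on SHR RVLM array 3 (others 2.61 to 3.53). For Gabrb2, 1369818_at read 33.9 on PVN array 4 (others 1.64 to 10.1). For Gabre, 1369383_a_at read 24.3 on WKY RVLM array 2 (others 1.09 to 2.31). What set these arrays apart was not tested.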

How the results depend on the processing

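How many members were called depended mainly on how the probe sets of a gene were combined. With the mean of all its probe sets in place of the brightest, the calls numbered 1 for PVN minus SON (3 otherwise), 2 for PVN minus RVLM (4 otherwise), 3 for SON minus RVLM (6 otherwise) and 0 of 28 for the ratio tests (12 otherwise). Of the 14217 genes then tested, 9.69%, 33.2% and 33.7% were called in the 3 comparisons. In the main fit 8.11%, 30.5% and 30.9% of all probe sets were called in them. That setting averages in dim probe sets. Of the 12 ratio calls lost, 4 are of genes with 1 probe set each, whose values stayed and whose adjusted p moved to 0.0556 to 0.0741. The setting turned Gabrb2 to 0.16 in PVN minus SON and to -0.52 in SON minus RVLM, and Gabbr2 over Gabbr1 to -0.090 in PVN minus NIL, none of them called. With a pseudocount of 16, 16 of 28 ratio tests passed. With the 2 groups alone in the fit, 1 member was called in PVN minus SON. The share of all probe sets called there was then 3.15%, against 8.11% in the main fit. With 1 array left out, the members called numbered 2 to 3 for PVN minus SON, 6 for PVN minus NIL, 6 to 7 for SON minus NIL, 3 to 5 for PVN minus RVLM, 6 for SON minus RVLM, 6 to 7 for NIL minus RVLM and 0 between the strains, and 8 to 12 ratio tests passed. In the same order, the shares of all probe sets called were 4.62% to 12.7%, 35.2% to 40.8% and 29.6% to 36.8%. They were then 27.4% to 33%, 26.3% to 34.1%, 46.3% to 51.6% and, between the strains, 0.625% to 0.834%. The ratio tests that lost their call here had an array of the compared groups missing, which raises the smallest p possible. Over single results, 2114 alternatives kept direction and call, 79 lost the call, 21 gained it and 3 reversed.

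Deposited values and quantile normalization left the counts of member calls as they were. Without the shift to a common median, the median difference of all probe sets was 0.10 in SON minus RVLM and 0.13 in NIL minus RVLM, against 0.02 and 0.04 with it. The filter at the 40th percentile left Gabra3 untested. Arrays of 2 groups with the same number in their titles had correlations of their deviations between -0.12 and 0.17, not all over 0.1 in any comparison, so the numbers were not taken to pair pools. A replicate block gave 2 calls for PVN minus SON, 5 for PVN minus RVLM and 7 for NIL minus RVLM, the last 2 gaining Gabra3 (adjusted p = 0.0308 and 0.0261). Of all probe sets, the block fit called 7.03%, 29.9% and 48.9% in these comparisons. The number of arrays and, for Gabra3 and the second probe sets, their low signal limit the precision.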
